A study of Mus musculus with 16 samples.

Results

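The unfolded protein response and the integrated stress response were followed here through 35 genes, taken by symbol from a fixed list, out of 39017 gene rows in each of 3 comparison tables. The list holds the stress sensors, the transcription factors they act through, the phosphatase subunits that end the response, and the target genes and chaperones that the factors induce. All 35 were found in each table, and all 35 carried an adjusted p-value in each, so none was lost to a filter on low counts.

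The endoplasmic reticulum (ER) folds secreted and membrane proteins. When unfolded proteins build up there, the sensors Ern1 (IRE1), Eif2ak3 (PERK) and Atf6 start the unfolded protein response. PERK and the amino acid sensor Eif2ak4 (GCN2) phosphorylate the initiation factor eIF2, which lowers most protein synthesis. A few mRNAs, Atf4 and Ddit3 among them, carry upstream open reading frames that hold ribosomes away from the main coding region in unstressed cells and let them reach it when eIF2 is phosphorylated. Neurons make many membrane and secreted proteins, and in the brain phosphorylation of eIF2 is known for its part in long-lasting synaptic plasticity and memory as well as in stress.

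Mice were of the inbred strain C57BL/6J. In all groups the prelimbic cortex (PL), a medial part of the prefrontal cortex, had received AAV-IV-GFPL10, a virus for a ribosomal protein fused to green fluorescent protein. The mice had also received CAV-Cre, a canine adenovirus that travels back along axons and carries Cre, in 1 of 3 targets of PL axons, namely the nucleus accumbens (NAc), the amygdala's basolateral part (BLA) and the ventral tegmental area (VTA). Polysomes carrying the tag were pulled down with anti-GFP beads (IP) and set against the total RNA of the dissected PL (Input). This is viral translating ribosome affinity purification. There were 16 libraries in 6 groups, with 3 IP and 3 Input libraries for PL-NAc, 3 and 3 for PL-BLA, and 2 and 2 for PL-VTA. The ages of the mice, and whether each library came from 1 animal or a pool, are not stated in the labels, so p-values measure the spread between these libraries, which may be technical. The tag marks neurons by where their axons end and not by a cell type promoter.

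No per-library values were used here. The values are the fold changes in the authors' deposited tables, on a log2 scale as IP over Input, each with its standard error (SE). Genes whose adjusted p in those tables was under 0.05 were called, as higher or as lower in the IP by their sign. A negative value means that the tagged polysomes held a smaller share of that mRNA than the tissue around them. In such bulk samples, fewer cells of a type, less RNA per cell and less mRNA on polysomes cannot be told apart. Ribosomes on an upstream frame and ribosomes on the main coding region are pulled down alike, so the values do not measure which frame was read.

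The mean normalized counts in the authors' deposited tables summed to between 15437849 and 16520414 over the 3 projections. The median SE of the 35 genes was 0.13 for the NAc and BLA projections and 0.22 for the VTA projection, which had fewer libraries. The labelled cell type was checked against 10 markers of excitatory neurons. In the authors' deposited tables their median fold change was 0.62 in PL-NAc, with 9 markers higher and 1 lower. It was 0.69 in PL-BLA, with 8 higher and 0 lower, but only 0.06 in PL-VTA, with 2 higher and 3 lower in the authors' deposited table. The marker lists of other cells had low medians in the IP of every projection. Median fold changes over the NAc, BLA and VTA projections in the authors' deposited tables were -2.11, -1.39 and -1.49 for 10 astrocyte markers, -3.22, -2.43 and -2.49 for 10 oligodendrocyte markers, -2.60, -2.05 and -1.95 for 10 microglial markers, and -1.77, -1.68 and -1.55 for 10 markers of inhibitory neurons. They were -1.41, -1.31 and -0.88 for 8 endothelial and mural markers in the same authors' deposited tables. Single markers departed from their lists. Sst, of inhibitory neurons, was higher in PL-NAc (0.26, SE 0.09, adjusted p = 0.0117), the astrocyte marker Aldh1l1 stood at 0.23 (SE 0.11, adjusted p = 0.0711) in PL-BLA, and 3 of the 8 endothelial and mural markers were called lower in PL-VTA in the authors' deposited tables. In PL-VTA, 8 of the 10 inhibitory markers were lower in the authors' deposited table. Gad2 (-0.20, SE 0.42) and Slc32a1 (-0.43, SE 0.35) were not called there. The 3 excitatory markers lower in PL-VTA were Nrn1 (-1.29, SE 0.14), Neurod6 (-0.82, SE 0.15) and Camk2a (-0.37, SE 0.13) in the authors' deposited table. None of the markers was at 0. Glial and mitochondrial transcripts were what set the sign of the fold change, so the glial fall is not a finding. The marker lists of other cells were low in the same comparisons as the genes described below that fell. The part of those cells in these falls was not tested.

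Over the whole set, genes for the stress factors and their regulators tended to the low side, with Xbp1 and Cebpb as exceptions. Genes for ER chaperones tended to the high side, but beside genes of similar mean count only Hsp90b1 in PL-BLA was called higher. In PL-NAc, 8 of the 35 genes were higher in the IP and 13 were lower in the authors' deposited table, beside 21.4% higher and 21.7% lower among all 17998 genes tested. In PL-BLA, 11 were higher and 10 lower, beside 20.8% and 20.2% of 17668 genes. In PL-VTA, 4 were higher and 6 lower, beside 11.0% and 10.5% of 15440 genes. The median fold change of the set was -0.28 for the NAc, -0.11 for the BLA and -0.09 for the VTA projection in the authors' deposited tables, beside -0.03, -0.02 and 0.02 for all genes tested. In all 3 projections, 4 genes were higher (Asns, Hspa5, Hsp90b1 and Calr), beside 8.76% of the 15425 genes tested in all 3, and 5 were lower (Atf4, Ddit3, Nupr1, Psat1 and Phgdh), beside 8.64%. No gene was called in opposite directions, and 25 of the 35 were called in at least 1 projection. The shares of all genes with these patterns were not counted, so neither number is a finding about the set.

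**Figure D1:**
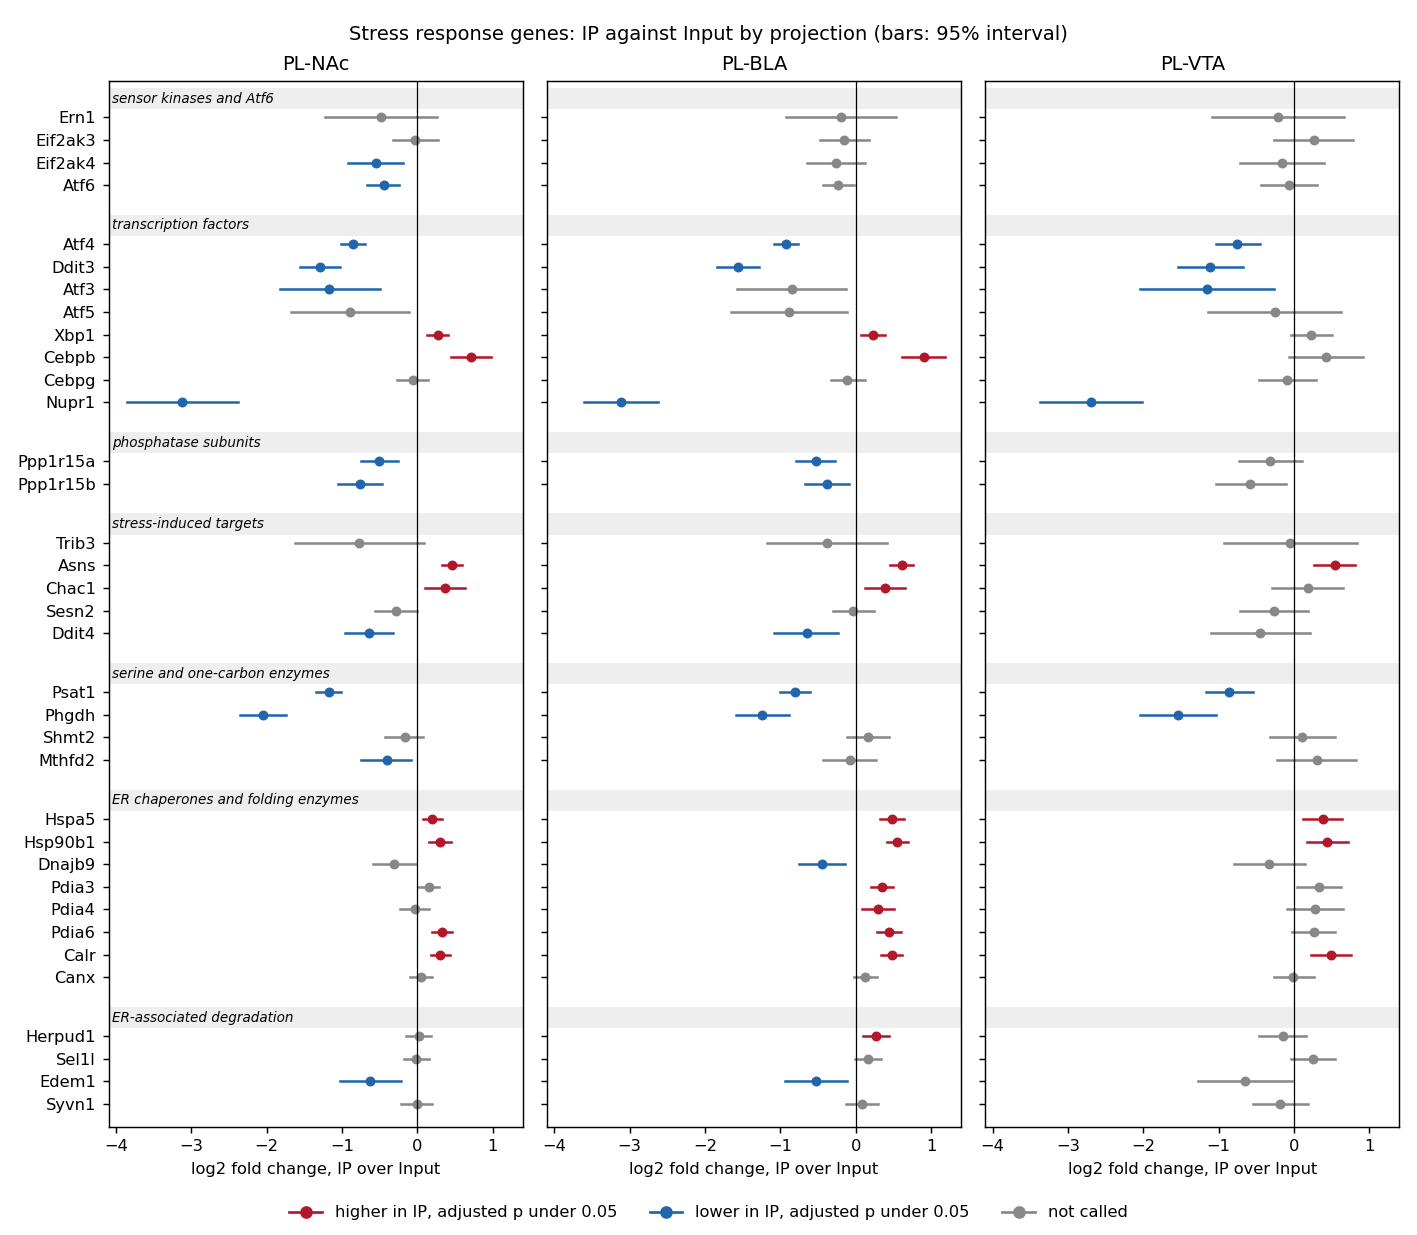
Log2 fold changes of IP over Input for the 35 genes, grouped by role, with 1 panel per projection; points are the authors' deposited values, bars are 95% intervals computed from their standard errors, and colours mark an adjusted p under 0.05. Atf4, Ddit3, Nupr1, Psat1 and Phgdh lie left of 0 in every panel, and Asns, Hspa5, Hsp90b1 and Calr lie right of 0 in every panel.

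Atf4 and Ddit3 were depleted from the polysomes of all 3 projections. Both have known upstream open reading frames, but a link between such frames and depletion was not tested. Such frames are named here for some genes of the set only, and the list of other mRNAs known for them, given further on, went both ways. Atf4, the factor that eIF2 phosphorylation brings out (15: 80255184-80257541, plus strand, GRCm38), fell to 55.4% of Input for PL-NAc, 52.7% for PL-BLA and 59.7% for PL-VTA by the authors' deposited tables. Its log2 fold change was -0.85 (SE 0.09, adjusted p = 3.1e-22), -0.93 (SE 0.09, adjusted p = 1.9e-25) and -0.75 (SE 0.15, adjusted p = 1.6e-05) in the authors' deposited tables for the NAc, BLA and VTA projections. With equal numbers of IP and Input libraries, the mean count and fold change of Atf4 in the authors' deposited tables imply 1360 normalized counts in IP and 2457 in Input for PL-NAc, 1172 and 2225 for PL-BLA, and 1480 and 2481 for PL-VTA. The 95% intervals of the fold change ran from -1.02 to -0.69, from -1.09 to -0.76 and from -1.04 to -0.45, and all lay below 0. Of all genes tested, 13.4%, 10.4% and 11.4% had a lower fold change than Atf4.

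Ddit3 (CHOP), a factor that Atf4 induces and that is tied to cell death under lasting stress (10: 127290774-127296288, plus strand, GRCm38), fell further. It stood at 40.8% of Input for PL-NAc, 33.9% for PL-BLA and 46.4% for PL-VTA by the authors' deposited tables. The log2 fold changes of Ddit3 in the authors' deposited tables were -1.29 (SE 0.14, adjusted p = 5.2e-20), -1.56 (SE 0.14, adjusted p = 4.5e-26) and -1.11 (SE 0.22, adjusted p = 1.1e-05). They imply 250.9 normalized counts in IP and 614.7 in Input for PL-NAc, 193.7 and 571.5 for PL-BLA, and 300.6 and 648.6 for PL-VTA, from the means in the authors' deposited tables. Ddit3 was below Atf4 by 0.44, 0.64 and 0.36 on the log2 scale; this gap has no test, since the error the 2 genes share is not known. The annotation puts exons of Mars and Gm4189, both on the opposite strand, over 68 and 13 bases of Ddit3. A second entry named Ddit3, on the same strand, shares 105 bases with it. The library chemistry does not mark the strand, so reads in the opposite-strand overlaps could not be assigned. Nor could reads in the bases that the 2 Ddit3 entries share.

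Atf5 and the phosphatase subunit Ppp1r15a also carry known upstream frames, and Atf3 is a stress factor induced through Atf4. Atf3 was lower in PL-NAc (-1.17, SE 0.34, adjusted p = 0.00219) and PL-VTA (-1.16, SE 0.45, adjusted p = 0.0487) in the authors' deposited tables. In PL-BLA it stood at -0.85 (SE 0.37, adjusted p = 0.0516) in the authors' deposited table, just short of the threshold. Its mean count was only 25.4 to 37.9 in the authors' deposited tables. Atf5 had a mean count of 18.5 to 23.4 in the authors' deposited tables and was not called in any, at -0.89 (SE 0.40), -0.88 (SE 0.40) and -0.25 (SE 0.45). The adjusted p-values of Atf5 were 0.0562, 0.0614 and 0.775 in the authors' deposited tables.

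Xbp1, Cebpb and Cebpg were not called lower in any projection. Xbp1, whose mRNA IRE1 splices into the active form, was slightly higher in PL-NAc (0.27, SE 0.07, adjusted p = 0.00034) and PL-BLA (0.23, SE 0.08, adjusted p = 0.0137) in the authors' deposited tables. The PL-VTA value was nearly the same size, 0.23 (SE 0.14, adjusted p = 0.244) in the authors' deposited table, but was not called. Counts per gene do not separate spliced from unspliced Xbp1. Cebpb, a partner of Atf4 and Ddit3 that is made as long and short proteins from 1 mRNA, was the factor with the largest rise. It reached 0.71 (SE 0.13, adjusted p = 9e-07) in PL-NAc and 0.90 (SE 0.14, adjusted p = 4.1e-09) in PL-BLA in the authors' deposited tables, and 0.43 (SE 0.25, adjusted p = 0.231) in PL-VTA. Cebpb is a gene of 1504 exonic bases in the annotation, and 312 of them overlap Tmem189 on the other strand, so part of its count could belong to that gene. Cebpg, a further partner of Atf4, lay between -0.11 and -0.06 in the authors' deposited tables and was not called.

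Nupr1, a small stress-induced chromatin protein, was the most depleted gene of the set. The authors' deposited tables placed it at -3.12 (SE 0.38, adjusted p = 1.6e-15) in PL-NAc, -3.12 (SE 0.25, adjusted p = 2.9e-33) in PL-BLA and -2.69 (SE 0.35, adjusted p = 4.6e-13) in PL-VTA. It was left at 11.5%, 11.5% and 15.5% of Input by the authors' deposited tables. For PL-NAc this fold lay inside the range of each glial list, whose lowest markers were at -3.32 (astrocyte), -3.54 (oligodendrocyte) and -3.42 (microglial). The PL-BLA fold was below the lowest marker of each glial list, at -2.26, -3.01 and -3.02 in the same order. The PL-VTA fold was below the lowest astrocyte (-2.61) and microglial (-2.67) markers but not the lowest oligodendrocyte marker (-2.85). The part of glial RNA in the fall of Nupr1 was not tested.

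Of the 4 sensors, 2 were lower in PL-NAc, Atf6 and Eif2ak4, and 0 were called in PL-BLA or PL-VTA in the authors' deposited tables from DESeq2, where 1 and 0 had an unadjusted p under 0.05. Ern1, the IRE1 kinase and nuclease, had mean counts of 21.2 to 30.5 and fold changes of -0.48 (SE 0.38), -0.20 (SE 0.37) and -0.21 (SE 0.45) in the authors' deposited tables for the NAc, BLA and VTA projections. None was called, and the intervals reached from -1.23 to 0.67. Eif2ak3 lay at -0.03 (SE 0.15), -0.15 (SE 0.17) and 0.26 (SE 0.27) in the authors' deposited tables, again without a call. Atf6, a membrane-bound factor cut free in the Golgi, fell in PL-NAc to 73.0% of Input (-0.45, SE 0.11, adjusted p = 0.00015) in the authors' deposited table. It stood at -0.23 (adjusted p = 0.0799) in PL-BLA and -0.07 (adjusted p = 0.857) in PL-VTA in the authors' deposited tables. Eif2ak4 was likewise lower in PL-NAc (-0.55, SE 0.19, adjusted p = 0.00898) and not called in the other two in the authors' deposited tables, at -0.26 (SE 0.19) and -0.16 (SE 0.28). That these falls passed in PL-NAc and not elsewhere does not show a difference between projections, which is tested further on.

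Both subunits that bring protein phosphatase 1 to eIF2 and so end the response were lower in PL-NAc and PL-BLA, though the PL-BLA call of Ppp1r15b was lost after centring on genes of similar mean (adjusted p = 0.0706) and at a threshold of 0.01. Ppp1r15a (GADD34), the stress-induced subunit, stood at -0.51 (SE 0.12, adjusted p = 0.00019) in PL-NAc and -0.53 (SE 0.13, adjusted p = 0.000196) in PL-BLA in the authors' deposited tables. Ppp1r15b (CReP), the constitutive subunit, stood at -0.76 (SE 0.15, adjusted p = 1.6e-06) and -0.38 (SE 0.15, adjusted p = 0.026) in the authors' deposited tables for the same projections. In PL-VTA they were at -0.32 (SE 0.21, adjusted p = 0.326) and -0.58 (SE 0.24, adjusted p = 0.0636) in the authors' deposited table, and neither was called. Exons of a gene on the other strand cover 640 bases of Ppp1r15b in the annotation.

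The target genes set beside Atf4 and Ddit3 did not move as a group. Asns, asparagine synthetase and a textbook target of Atf4 (6: 7675169-7693254, minus strand, GRCm38), was higher in all 3 projections while Atf4 mRNA was lower. By the authors' deposited tables it was 1.38 times Input in PL-NAc, 1.53 times in PL-BLA and 1.45 times in PL-VTA. On the log2 scale the authors' deposited tables had Asns at 0.46 (SE 0.07, adjusted p = 5e-11), 0.61 (SE 0.08, adjusted p = 1.2e-13) and 0.54 (SE 0.14, adjusted p = 0.00137). Chac1, which degrades glutathione, was higher in PL-NAc (0.36, SE 0.13, adjusted p = 0.0182) and PL-BLA (0.39, SE 0.13, adjusted p = 0.0088) and stood at 0.18 (SE 0.24) in PL-VTA in the authors' deposited tables. Ddit4 (REDD1), an inhibitor of mTORC1 signalling, was lower in PL-NAc (-0.64, SE 0.17, adjusted p = 0.000419) and PL-BLA (-0.65, SE 0.21, adjusted p = 0.00719) and stood at -0.45 (SE 0.33) in PL-VTA in the authors' deposited tables. Sesn2, which senses leucine for mTORC1, lay between -0.28 and -0.03 in the authors' deposited tables and was not called. Trib3, a pseudokinase that restrains Atf4 and Ddit3, had a mean count of 7.4 to 18.4 and lay between -0.77 and -0.05 in the authors' deposited tables, also without a call.

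The enzymes of serine synthesis, which Atf4 induces in many cell types, were among the most depleted. In the brain these enzymes are known mainly from astrocytes. Phgdh, the first enzyme of the route (3: 98313170-98339990, minus strand, GRCm38), stood at 24.2%, 42.5% and 34.4% of Input by the authors' deposited tables for the NAc, BLA and VTA projections. Its log2 fold changes in the authors' deposited tables were -2.05 (SE 0.16, adjusted p = 4.4e-37), -1.24 (SE 0.18, adjusted p = 1.5e-10) and -1.54 (SE 0.25, adjusted p = 5.4e-08). Psat1, the second enzyme, stood at -1.18 (SE 0.08, adjusted p = 3.1e-43), -0.80 (SE 0.10, adjusted p = 1e-13) and -0.86 (SE 0.16, adjusted p = 1.8e-06) in the authors' deposited tables. The 10 astrocyte markers ranged from -3.32 to -0.78, from -2.26 to 0.23 and from -2.61 to -0.66 in the authors' deposited tables, and 10, 9 and 10 of them were lower; both enzymes lie inside these ranges, and the part of astrocyte RNA in their fall was not tested. A named pseudogene, Phgdh-ps1, could take or give reads of Phgdh. The mitochondrial one-carbon enzymes showed less. Shmt2, which splits serine, lay at -0.17 (SE 0.13), 0.16 (SE 0.14) and 0.11 (SE 0.22) in the authors' deposited tables and was not called. Mthfd2, the folate enzyme after it, was lower in PL-NAc (-0.41, SE 0.17, adjusted p = 0.0392) and stood at -0.08 (SE 0.18) and 0.30 (SE 0.26) in PL-BLA and PL-VTA in the authors' deposited tables.

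**Figure D2:**
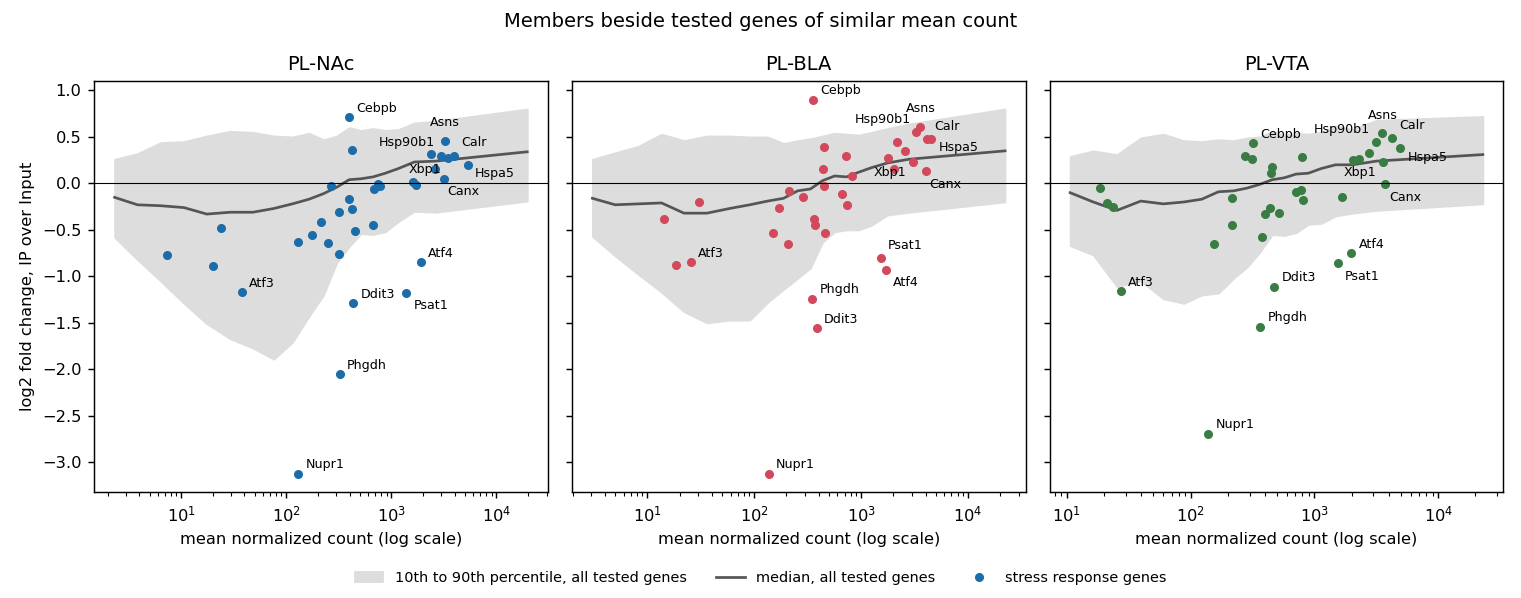
Log2 fold change of IP over Input against the mean normalized count on a log scale, 1 panel per projection; points are the stress response genes, the line is the median and the grey band the 10th to 90th percentile of all tested genes in 20 bins of equal size. Atf4, Ddit3, Psat1, Phgdh and Nupr1 lie below the grey band in each panel, while Hspa5 and Calr lie near the line, which is at 0.34, 0.35 and 0.31 in the bin of Hspa5. Canx lies 0.19, 0.22 and 0.25 under the line.

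Genes for ER chaperones and folding enzymes had fold changes mostly above 0, though after centring on genes of similar mean only Hsp90b1 in PL-BLA was called higher. Of 8, 4 were higher and 0 lower in PL-NAc, 6 higher and 1 lower in PL-BLA, and 3 higher and 0 lower in PL-VTA, with median fold changes of 0.18, 0.40 and 0.30 in the authors' deposited tables, beside 21.4%, 20.8% and 11.0% higher among all genes tested. Hspa5 (BiP), the main Hsp70 chaperone of the ER (2: 34771970-34777547, plus strand, GRCm38), stood at 0.20 (SE 0.06, adjusted p = 0.00315), 0.48 (SE 0.08, adjusted p = 3.6e-08) and 0.38 (SE 0.13, adjusted p = 0.0241) in the authors' deposited tables. The values imply 5694 normalized counts in IP and 4949 in Input for PL-NAc, 5262 and 3768 for PL-BLA, and 5598 and 4307 for PL-VTA, from the means in the authors' deposited tables. Hsp90b1 (GRP94), the Hsp90 of the ER, stood at 0.30 (SE 0.08, adjusted p = 0.000248), 0.55 (SE 0.07, adjusted p = 4.8e-13) and 0.44 (SE 0.14, adjusted p = 0.0109) in the authors' deposited tables. In the annotation, exons of 1810014B01Rik on the other strand cover 415 bases of Hsp90b1. Gm15344 and Gm25745, on the same strand, cover 84 and 133 bases, so the count of Hsp90b1 could be affected. Calr (calreticulin), a chaperone of glycoproteins that also binds calcium, stood at 0.30 (SE 0.06, adjusted p = 1.2e-05), 0.48 (SE 0.07, adjusted p = 1.2e-09) and 0.49 (SE 0.14, adjusted p = 0.00335) in the authors' deposited tables. A named pseudogene, Calr-ps, could take or give reads of Calr. Canx (calnexin), the membrane-bound relative of calreticulin, was not called in any and lay between -0.01 and 0.13 in the authors' deposited tables.

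The 3 protein disulfide isomerases of the set, which form and exchange disulfide bonds, were all higher in PL-BLA. Pdia6 was higher in PL-NAc (0.32, SE 0.07, adjusted p = 1.8e-05) and PL-BLA (0.44, SE 0.08, adjusted p = 6.4e-07) and stood at 0.26 (SE 0.15) in PL-VTA in the authors' deposited tables. Pdia3 was called in PL-BLA (0.35, SE 0.08, adjusted p = 2.2e-05), beside 0.15 (SE 0.07, adjusted p = 0.0737) in PL-NAc and 0.33 (SE 0.15, adjusted p = 0.103) in PL-VTA in the authors' deposited tables. Pdia4 was also called in PL-BLA (0.30, SE 0.11, adjusted p = 0.0185), beside -0.03 (SE 0.10) and 0.28 (SE 0.19) for PL-NAc and PL-VTA in the authors' deposited tables. Dnajb9 (ERdj4), a co-chaperone of BiP and a target of spliced Xbp1, went the other way. It was lower in PL-BLA (-0.45, SE 0.16, adjusted p = 0.0123) and stood at -0.31 (SE 0.15, adjusted p = 0.0738) and -0.33 (SE 0.24, adjusted p = 0.377) in PL-NAc and PL-VTA in the authors' deposited tables.

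The 4 genes of ER-associated degradation, which returns misfolded proteins to the cytosol, did not move as a group. Edem1, which marks misfolded glycoproteins for removal, was lower in PL-NAc (-0.63, SE 0.21, adjusted p = 0.00758) and PL-BLA (-0.53, SE 0.21, adjusted p = 0.0318) and stood at -0.65 (SE 0.32, adjusted p = 0.142) in PL-VTA in the authors' deposited tables. Herpud1, a scaffold of the degradation complex, was higher in PL-BLA (0.27, SE 0.09, adjusted p = 0.00719), beside 0.02 (SE 0.08) in PL-NAc and -0.15 (SE 0.16) in PL-VTA in the authors' deposited tables. Sel1l and Syvn1 (HRD1), the adaptor and the ubiquitin ligase of the complex, lay between -0.02 and 0.25 and between -0.18 and 0.08 in the authors' deposited tables, and neither was called.

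The rise of the abundant chaperones was about that of other genes counted as often. In all 3 tables the fold change rose with the mean count, and the median over genes of similar mean went from -0.33 to 0.34 in PL-NAc, from -0.32 to 0.35 in PL-BLA and from -0.29 to 0.31 in PL-VTA over the bins that hold the set. Less this median, Hspa5 was at -0.14, 0.13 and 0.07 and Calr at -0.04, 0.12 and 0.18, and neither was called in any projection. Hsp90b1 was called higher in PL-BLA alone (0.29, adjusted p = 0.000388), and Xbp1, Pdia3, Pdia4, Pdia6 and Herpud1 lost their calls as higher. Asns remained higher in PL-NAc (0.22, adjusted p = 0.00349) and PL-BLA (0.35, adjusted p = 6.68e-05) and stood at 0.29 (adjusted p = 0.149) in PL-VTA. Cebpb and Chac1 also remained higher in PL-NAc and PL-BLA. On the low side the centring took Atf4 to -1.08, -1.14 and -0.94 and Ddit3 to -1.34, -1.50 and -1.15, and both remained lower in all 3, as did Nupr1, Psat1 and Phgdh. Other calls as lower were lost, namely those of Eif2ak4, Mthfd2 and Edem1 in PL-NAc, of Ppp1r15b (adjusted p = 0.0706), Ddit4 (adjusted p = 0.0589) and Edem1 in PL-BLA, and of Atf3 in PL-VTA (adjusted p = 0.201). Calls as lower were gained by Canx (-0.19, adjusted p = 0.0379), Herpud1 (-0.21, adjusted p = 0.0352) and Sel1l (-0.24, adjusted p = 0.013) in PL-NAc and by Atf6 (-0.30, adjusted p = 0.0196) and Canx (-0.22, adjusted p = 0.0112) in PL-BLA.

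Promoters of the set were searched for the ER stress response element, the site through which Atf6 and Xbp1 act on chaperone genes, written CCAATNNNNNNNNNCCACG, on both strands. The windows were RefSeq promoters on GRCm38.p6, from 250 bases before to 50 bases after the gene start, and 33 of the 35 genes had one. The gene start is that of RefSeq, which can differ from the GENCODE positions given elsewhere. It lies, for example, 120 bases inside the GENCODE gene for Hspa5, 45 for Asns, 5391 for Nupr1 and 34706 for Atf3. The stretches of Hspa5, Asns and Nupr1 fall in GENCODE exons of those genes and are shown with 5 bases on each side of the match, the others with 20. The motif was in 39 of 32851 windows, or 0.119%, and in those of 6 genes of the set. The set was listed to hold genes that these factors induce, so matches in it are not a finding. The stretches around the matches are shown because the chaperones higher in all 3 projections carry them. Capitals mark the match, which reads CCAAT first on the gene's strand or, for Calr and the second match of Hsp90b1, as its reverse complement. They lie at chr2:34772020-34772048 (plus strand) for Hspa5, chr8:84847055-84847113 (minus) for Calr, chr10:86705513-86705676 (minus) for Hsp90b1, chr12:17266471-17266529 (plus) for Pdia6, chr11:50325780-50325838 (minus) for Canx and chr19:6046512-6046570 (plus) for Syvn1.
Hspa5: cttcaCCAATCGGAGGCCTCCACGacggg
Calr: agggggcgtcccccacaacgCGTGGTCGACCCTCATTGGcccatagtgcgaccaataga
Hsp90b1: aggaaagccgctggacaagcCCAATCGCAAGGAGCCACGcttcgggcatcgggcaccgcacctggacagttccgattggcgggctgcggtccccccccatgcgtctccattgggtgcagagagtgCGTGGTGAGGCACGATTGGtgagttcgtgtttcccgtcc
Pdia6: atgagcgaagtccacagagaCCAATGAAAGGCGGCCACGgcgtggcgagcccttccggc
Canx: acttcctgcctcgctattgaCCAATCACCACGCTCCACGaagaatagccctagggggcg
Syvn1: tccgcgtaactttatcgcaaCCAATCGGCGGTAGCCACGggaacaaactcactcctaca

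Of these 6 genes, 4 were called higher for PL-NAc, 4 for PL-BLA and 3 for PL-VTA in the authors' deposited tables, and 0 were called lower in any. Among all genes tested, 21.4%, 20.8% and 11.0% were higher and 21.7%, 20.2% and 10.5% lower. Hspa5, Calr and Hsp90b1 were the carriers higher in all 3, whereas Canx and Syvn1 hold the same letters and were not called. After centring on genes of similar mean, only Hsp90b1 in PL-BLA was called higher among the 6. Canx was then called lower in PL-NAc and PL-BLA. A match describes the letters in the window and does not show that a factor was bound.

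A second search was for the site of Atf4 paired with C/EBP factors, TGATGNAAN, on both strands. It was in 1299 of 32851 windows, or 3.95%, and in those of 6 genes of the set, namely Asns, Chac1, Herpud1, Nupr1, Atf3 and Trib3. Known targets of Atf4 were listed in the set, so these matches are not a finding either. The Trib3 match begins 13 bases past the gene start and is not printed. The others are shown because carriers of this site went both ways, with the match in capitals and as its reverse complement in all but Asns. They lie at chr6:7693219-7693237 (minus) for Asns, chr2:119351028-119351076 (plus) for Chac1, chr8:94386296-94386344 (plus) for Herpud1, chr7:126625568-126625586 (minus) for Nupr1 and chr1:191183416-191183464 (minus) for Atf3.
Asns: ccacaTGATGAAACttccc
Chac1: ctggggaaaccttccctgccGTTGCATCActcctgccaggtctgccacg
Herpud1: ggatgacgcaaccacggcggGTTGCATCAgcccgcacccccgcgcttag
Nupr1: gccagATTGCATCAgacag
Atf3: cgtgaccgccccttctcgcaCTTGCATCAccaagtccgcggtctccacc

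Among these 6 carriers, 2 were higher and 2 lower in PL-NAc, 3 higher and 1 lower in PL-BLA, and 1 higher and 2 lower in PL-VTA in the authors' deposited tables. Over all genes tested, 21.4%, 20.8% and 11.0% were higher and 21.7%, 20.2% and 10.5% lower. Asns rose in all 3 and Nupr1 fell in all 3 with the same kind of site in the window.

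The projections share no library, so their fold changes were set against each other gene by gene with a two-sided Wald z, adjusted by Benjamini-Hochberg over all genes. None of the 35 genes differed at an adjusted p under 0.05 in any pair. Among all genes, 0.489% were higher and 0.961% lower in PL-NAc than in PL-BLA, 1.23% higher and 1.6% lower in PL-NAc than in PL-VTA, and 2.0% higher and 1.9% lower in PL-BLA than in PL-VTA, over 18211, 17980 and 17671 genes. At an unadjusted p under 0.05, 7 genes of the set differed between PL-NAc and PL-BLA, beside 8.43% of all genes. These were Psat1, Phgdh, Hspa5, Hsp90b1, Pdia3, Pdia4 and Herpud1, and each was lower in PL-NAc. Only 1 gene differed at that level in each of the other pairs, or 2.86% of the set beside 9.47% and 10% of all genes. These were Mthfd2, lower in PL-NAc than in PL-VTA by a difference of -0.71 (SE 0.32, adjusted p = 0.352 from the Wald z), and Herpud1, higher in PL-BLA than in PL-VTA by 0.42 (SE 0.18, adjusted p = 0.284).

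Phgdh came nearest to a difference. Its fold change was lower in PL-NAc than in PL-BLA by a difference of -0.81 on the log2 scale (SE 0.24, 95% interval -1.28 to -0.34, adjusted p = 0.0509 from the Wald z). Psat1 differed in the same direction by -0.39 (SE 0.13, adjusted p = 0.152). The astrocyte markers had a median difference of -0.73 between the same projections, and 6 of the 10 were called lower in PL-NAc. The oligodendrocyte and microglial markers had the same median difference, -0.73, with 6 and 2 of 10 called lower. The part of these shifts in the Phgdh and Psat1 values was not tested. Hspa5 differed by -0.28 (SE 0.10, adjusted p = 0.212) and Hsp90b1 by -0.25 (SE 0.11, adjusted p = 0.366).

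The depletion of Atf4 and Ddit3 was not shown to differ between projections. The Atf4 difference was 0.07 (95% interval -0.17 to 0.31) for PL-NAc minus PL-BLA, -0.11 (-0.45 to 0.23) for PL-NAc minus PL-VTA and -0.18 (-0.52 to 0.16) for PL-BLA minus PL-VTA. For Ddit3 the differences were 0.27 (-0.12 to 0.65), -0.18 (-0.69 to 0.33) and -0.45 (-0.97 to 0.06) in the same order. The median SE of a difference over the set was 0.19 for the first pair and 0.26 for both pairs with PL-VTA, and a difference must be several times its SE to pass the adjusted threshold: that of Phgdh, -0.81 with an SE of 0.24, did not.

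**Figure D3:**
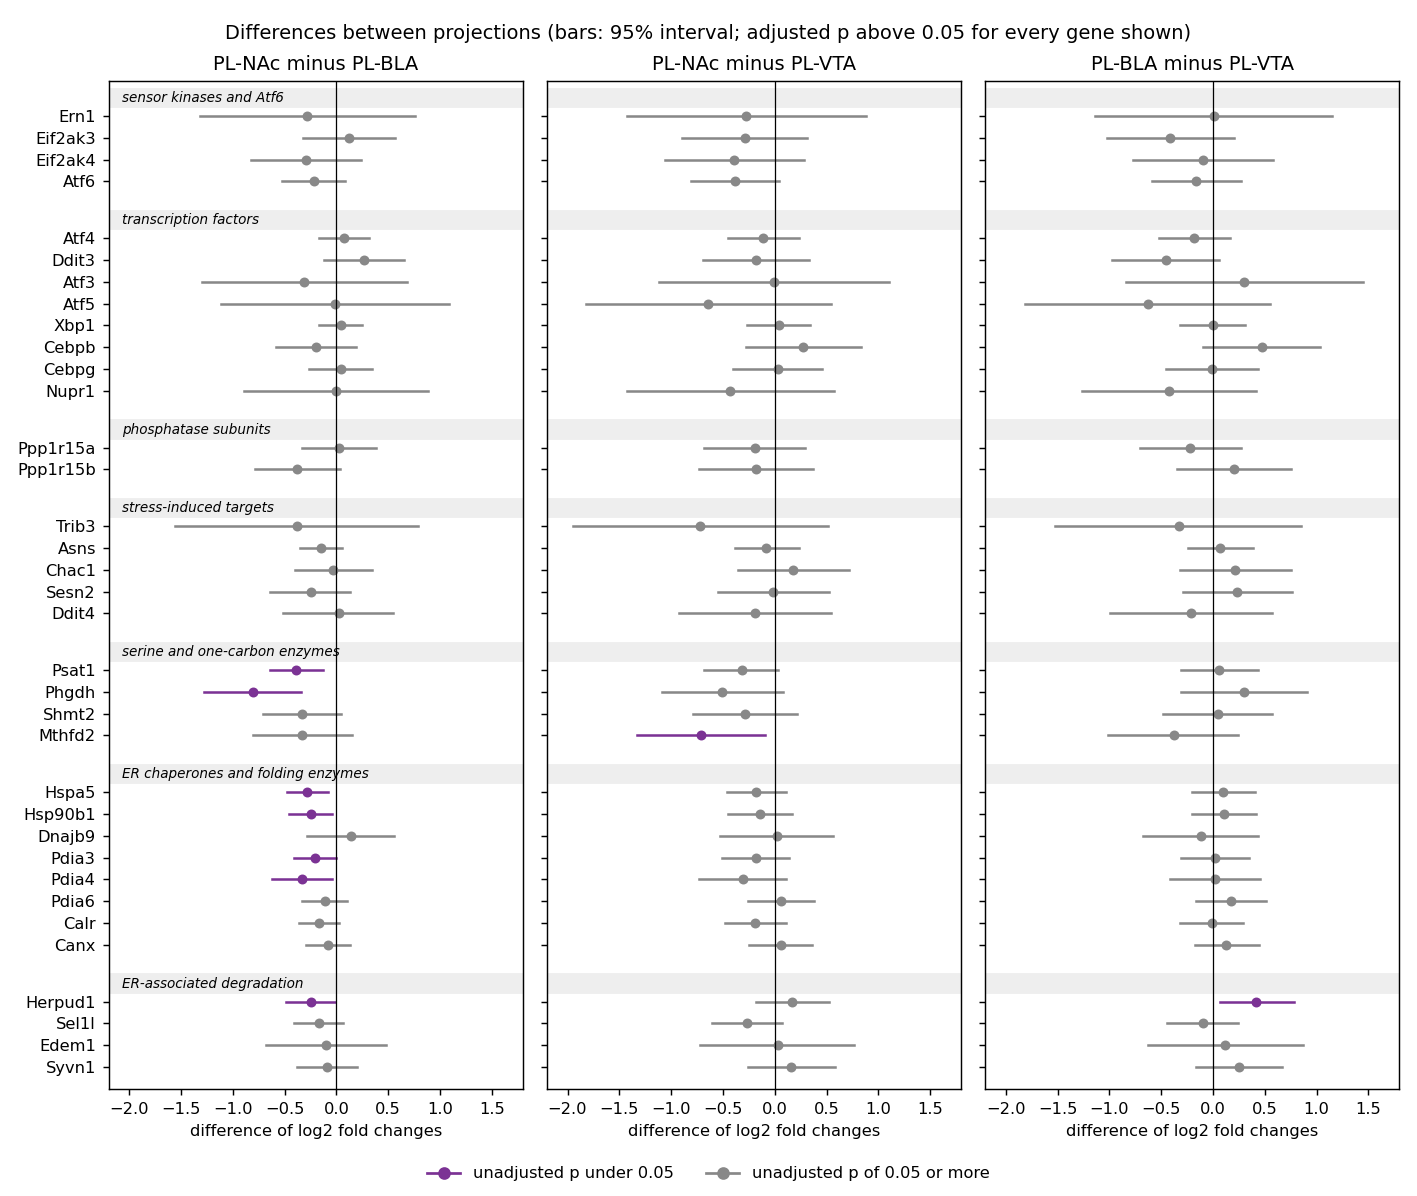
Differences of the log2 fold change of IP over Input between projections for the 35 genes; points are the difference, bars its 95% interval, and purple marks an unadjusted p under 0.05. No gene passed an adjusted p of 0.05, and the difference farthest from 0 among the purple genes is that of Phgdh, -0.81 for PL-NAc minus PL-BLA.

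Wider lists of the same pathways were set beside the 35 genes. Other mRNAs known for upstream open reading frames went both ways, with median fold changes of 0.05, 0.03 and 0.17 in the authors' deposited tables. Of 10, 3 were higher and 4 lower in PL-NAc, 3 and 3 in PL-BLA, and 1 and 3 in PL-VTA in the authors' deposited tables. Among all genes tested, 21.4%, 20.8% and 11.0% were higher and 21.7%, 20.2% and 10.5% lower. Less the median of genes of similar mean, 1 was higher and 4 lower in PL-NAc, 2 and 3 in PL-BLA, and 1 and 2 in PL-VTA. Eprs, the glutamyl-prolyl tRNA synthetase, rose by 0.98 (SE 0.21, adjusted p = 1.4e-05), 1.4 (SE 0.18, adjusted p = 1e-13) and 1.47 (SE 0.17, adjusted p = 2.7e-15) in the authors' deposited tables. Ifrd1, a transcriptional co-regulator, stood at -0.72 (SE 0.11), -0.70 (SE 0.11) and -0.71 (SE 0.19) and was lower in all 3 of the authors' deposited tables. Ucp2, a mitochondrial carrier, was also lower in all 3, at -1.85 (SE 0.15), -1.72 (SE 0.15) and -0.99 (SE 0.22) in the authors' deposited tables.

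Further Atf4 target genes also went both ways. Of 18, 6 were higher and 5 lower in PL-NAc, 6 and 6 in PL-BLA, and 1 and 2 in PL-VTA in the authors' deposited tables. The shares over all genes tested were 21.4%, 20.8% and 11.0% higher and 21.7%, 20.2% and 10.5% lower. Less the median of genes of similar mean, 5 were higher and 5 lower in PL-NAc, 7 and 4 in PL-BLA, and 0 and 2 in PL-VTA. An adjusted p was given for 17, 17 and 16 of the 18. Slc3a2, the heavy chain of amino acid transporters, was higher at 0.72 (SE 0.08), 0.82 (SE 0.08) and 0.53 (SE 0.15) in the authors' deposited tables. Slc7a11, the light chain of the cystine transporter and its partner, was lower in all 3, at -1.55 (SE 0.28), -1.56 (SE 0.26) and -1.33 (SE 0.39) in the authors' deposited tables. Gpt2, the mitochondrial alanine transaminase, was lower in all 3 as well, at -0.92 (SE 0.09), -0.54 (SE 0.10) and -0.74 (SE 0.17) in the authors' deposited tables. Gadd45a, a growth arrest gene named after its values were seen, had a fold change that was higher in PL-NAc than in PL-VTA by 1.44 (SE 0.39, adjusted p = 0.0122 from the Wald z) and higher in PL-BLA than in PL-VTA by 1.26 (SE 0.40, adjusted p = 0.047).

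The machinery of eIF2 itself had median fold changes of 0.31, 0.37 and 0.20 in the authors' deposited tables. Of 10 genes for eIF2, its exchange factor eIF2B and the other eIF2 kinases, 7 were higher and 1 lower in PL-NAc, 6 and 1 in PL-BLA, and 2 and 0 in PL-VTA in the authors' deposited tables, beside 21.4%, 20.8% and 11.0% higher among all genes tested. In PL-VTA, 8 of the 10 were not called. Eif2b5, the catalytic subunit of eIF2B, was higher at 0.77 (SE 0.08, adjusted p = 5.9e-23), 0.72 (SE 0.08, adjusted p = 1.6e-16) and 0.81 (SE 0.15, adjusted p = 8.6e-07) in the authors' deposited tables. The 1 gene called lower was Eif2ak2 (PKR), the kinase that senses double-stranded RNA, at -1.76 (SE 0.40, adjusted p = 6.1e-05) in PL-NAc and -1.05 (SE 0.36, adjusted p = 0.0105) in PL-BLA, beside -0.76 (SE 0.45, adjusted p = 0.243) in PL-VTA in the authors' deposited tables. Less the median of genes of similar mean, 3, 4 and 1 of the 10 were called higher and the list medians were 0.16, 0.25 and 0.08.

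Further ER genes were taken in 2 lists, beside 21.4%, 20.8% and 11.0% higher and 21.7%, 20.2% and 10.5% lower among all genes tested. Of 16 more genes of ER folding, 4 were higher in PL-BLA and 0 were called for the other projections in the authors' deposited tables, which come from DESeq2. The unadjusted p was under 0.05 for 1 of the 16 in PL-NAc and 2 in PL-VTA. Hyou1, an exchange factor of BiP, was among the 4 in PL-BLA at 0.61 (SE 0.14, adjusted p = 9.7e-05) in the authors' deposited table, and its fold change was lower in PL-NAc than in PL-BLA by a difference of -0.80 (SE 0.21, adjusted p = 0.0145 from the Wald z). Of 22 genes for degradation, the translocon and signal peptidase, 9 were higher and 3 lower in PL-NAc, 7 and 2 in PL-BLA, and 7 and 1 in PL-VTA in the authors' deposited tables. Less the median of genes of similar mean, 7 of the 22 were higher and 5 lower in PL-NAc, 6 and 6 in PL-BLA, and 4 and 1 in PL-VTA. Spcs1, a signal peptidase subunit, was higher at 0.70 (SE 0.08), 0.51 (SE 0.09) and 0.92 (SE 0.15) in the authors' deposited tables. Sec63, a translocon partner of BiP, was lower in all 3, at -0.73 (SE 0.11), -0.64 (SE 0.11) and -0.69 (SE 0.19) in the authors' deposited tables.

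The heat shock genes, most of them cytosolic counterparts of the ER chaperones, had median fold changes of 0.28, 0.47 and 0.36 in the authors' deposited tables. The list also holds the mitochondrial chaperonin genes Hspd1 and Hspe1, each called higher in all 3 projections. Of 13, 7 were higher and 2 lower in PL-NAc, 8 and 2 in PL-BLA, and 6 and 1 in PL-VTA in the authors' deposited tables, beside 21.4%, 20.8% and 11.0% higher among all genes tested. Less the median of genes of similar mean, 5 were higher and 4 lower in PL-NAc, 8 and 3 in PL-BLA, and 3 and 0 in PL-VTA. Hsp90ab1, the constitutive cytosolic Hsp90, was at 0.86 (SE 0.06), 0.95 (SE 0.07) and 0.79 (SE 0.12) in the authors' deposited tables. Hspa8, the constitutive cytosolic Hsp70, was at 0.65 (SE 0.06), 0.89 (SE 0.07) and 0.65 (SE 0.13) in the authors' deposited tables. Hsp90aa1 was at 0.76 (SE 0.07), 0.97 (SE 0.08) and 0.94 (SE 0.13) in the authors' deposited tables. The lower genes, named after their values were seen, were Bag3 and Hspb1. Bag3, a co-chaperone of Hsp70, was at -2.10 (SE 0.30), -1.47 (SE 0.28) and -1.08 (SE 0.42, adjusted p = 0.0507) in the authors' deposited tables and was not called in PL-VTA. Hspb1, a small heat shock protein, was lower in all 3 at -2.25 (SE 0.40), -1.35 (SE 0.40) and -1.38 (SE 0.45) in the authors' deposited tables, with mean counts of 18.4 to 25.5.

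**Figure D4:**
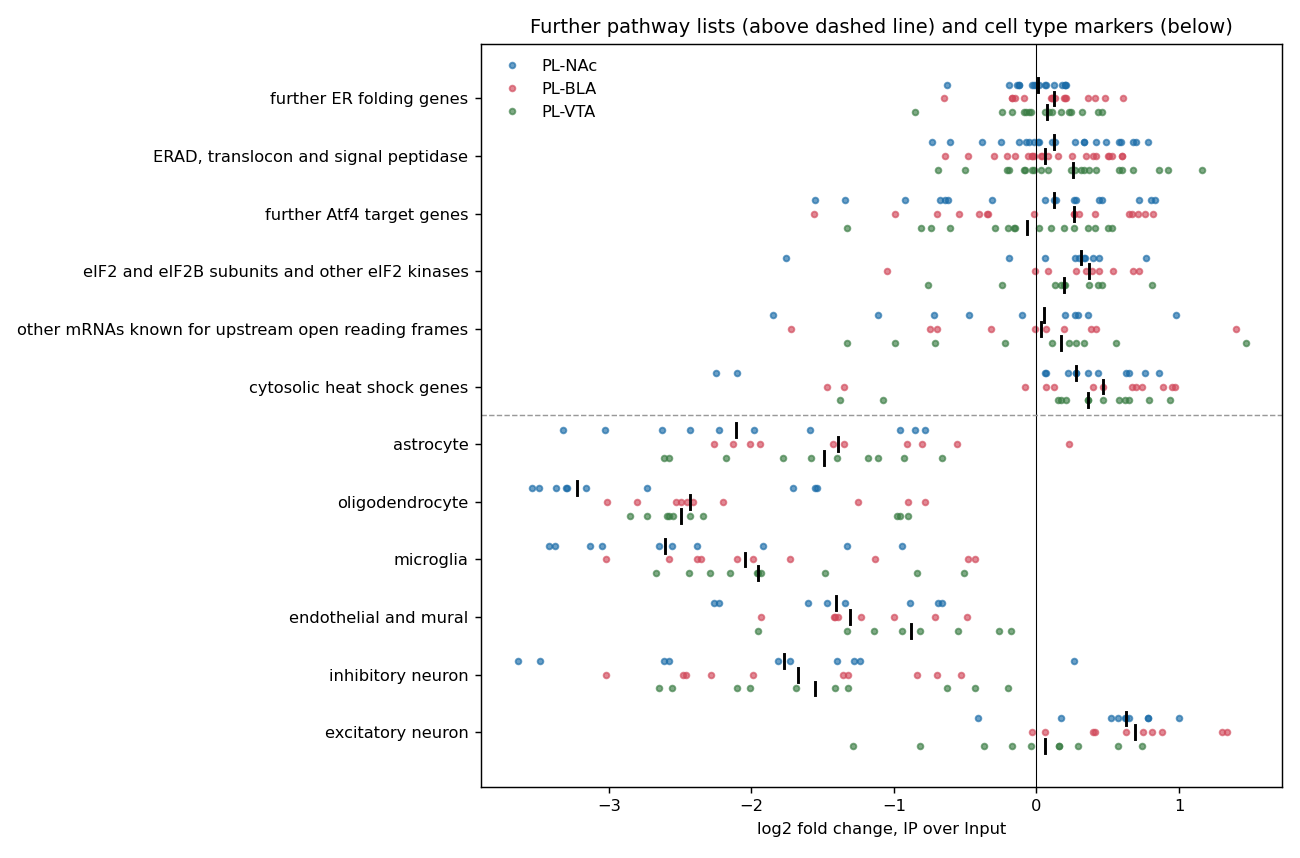
Log2 fold change of IP over Input for each gene of 6 further pathway lists and 6 cell type marker lists; points are genes coloured by projection and black bars are list medians. The medians of the eIF2 and heat shock lists lie right of 0 in every projection, the median of the further Atf4 targets changes sign between projections (0.12, 0.26 and -0.06), and the astrocyte, oligodendrocyte and microglial medians lie at -1.39 or lower.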

How the data were processed

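RNA was from IP and Input of mouse prelimbic cortex. The submitters' processing notes name STAR 2.3, featureCounts, DESeq2 and the build mm10 (GRCm38); they give no other version, annotation, strand setting or model. Per the labels' protocols, libraries were made with SMARTer Ultra Low and Nextera XT kits. Per the file headers, the authors deposited for each gene the mean signal (mean normalized count), the log2 fold change, its standard error, the Wald score, the p-value and its adjusted form. The log2 values appear to be shrunken toward 0, so implied counts and folds understate changes of genes with low counts. The differences between projections subtract these same values. Shrinkage may be unequal between the tables, and its effect on the differences was not tested. The direction is not named and was read as IP over Input from glial and mitochondrial transcripts. The adjusted p is blank below a mean of 1.82 (NAc projection), 2.39 (BLA) and 8.58 (VTA). Rows with no symbol held 0.227% to 0.240% of the mean counts.

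The 95% intervals, implied counts, the differences between projections (two-sided Wald z, Benjamini-Hochberg) and the centred values were computed with Python 3.11.15. The packages were pandas 2.3.3, numpy 2.4.6 and scipy 1.17.1. The difference test was run on simulated fold changes with normal noise of the deposited SEs. That run checks the calculation and cannot show whether those SEs hold for so few libraries. Tests of differences cover genes with a deposited adjusted p in at least 1 of the 2 tables. Gene positions and overlaps are from GENCODE vM21. All 35 genes are named; from each further list at most 3 called genes per projection are named, those with the largest absolute Wald statistic. The genes and lists were chosen with earlier results of these data known. Counts per library were not used, so a count model planned for that case was not run.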

Additional observations from a re-analysis of the deposited data

How the results depend on the processing

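No paired analysis was possible because the tables hold comparisons and no values per library; leaving out each replicate and edgeR were not run for the same reason. Counts of genes lower in the IP stayed within 1.5 times under each alternative. Counts of genes higher did not. Requiring a log2 fold change of at least 0.5 left 1 of 8 in PL-NAc, 3 of 11 in PL-BLA and 1 of 4 in PL-VTA, and 0 of the 4 higher in all 3. An adjusted p under 0.01 left 2 of 4 in PL-VTA and 2 of the 4 in all 3. Centring on genes of similar mean left 3, 4 and 0, and reversed Hspa5 (-0.14), Calr (-0.04), Canx (-0.19) and Herpud1 (-0.21) in PL-NAc and Xbp1 (-0.03) and Canx (-0.22) in PL-BLA; the cause was not tested. Centring on the median of genes of mean 50 or more shifted values by 0.06. Adjustment over genes of mean 50 or more gives no value for Ern1, Atf3, Atf5 and Trib3, which lie below 50. Of the 105 differences between projections, only that of Phgdh between PL-NAc and PL-BLA changed side. It passed in 4 settings, giving 1 gene lower in PL-NAc in place of 0: adjustment over genes of mean 50 or more (adjusted p = 0.0347), centring on their median (0.0489), on genes of similar mean (0.0404) and on genes of similar exonic length (0.0428, chosen after seeing the data). The Wald z is the test in each. PL-VTA, with 2 libraries a group and a median SE of 0.22, could show only larger changes.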
